A study of Mus musculus with 24 samples.

Results

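The genes described here are a set of 38 genes of fatty acid oxidation and of the PPAR-alpha programme, listed by symbol: the nuclear receptor and its coactivator, the enzymes and carriers of mitochondrial and peroxisomal beta-oxidation, a ketone body enzyme, and further target genes. All 38 were matched to the mouse Ensembl identifiers of the count table, which held 53465 genes, and all 38 passed the filter on low counts that left 15044 genes for testing. RNA was sequenced from intestinal epithelial cells of Guca2a-Venus mice, which carry a bacterial artificial chromosome in which Venus, a yellow fluorescent protein, replaces the coding part of *Guca2a*, the gene of the gut peptide guanylin. All 8 groups carried this transgene, and the line descends from 1 founder, so that fluorescence marks the cells in which that insertion is active. Mice were fed standard chow, and their ages are not given in the sources used here. Epithelium of the duodenum, jejunum, ileum and colon was digested to single cells and sorted into GFP positive (Venus-positive) and GFP negative (Venus-negative) cells, after dead cells, debris and CD45-positive immune cells had been gated out. Each of the 8 combinations of region and sort had 3 libraries, which the series' design text attributes to 3 mice. The labels do not name the mouse of a library, so that positive and negative cells were not paired and p-values measure the spread between these libraries.

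Gene counts per library summed to between 7458616 and 23063124, of which mitochondrially encoded genes took 32.3% to 80.7% and the 38 genes took 0.0725% to 0.265%. Levels are given as CPM of the tested genes, which are counts scaled to a common library total by the trimmed mean of M-values (normalised CPM), and 3 counts, taken as the floor of detection, corresponded to 0.106 to 0.360 normalised CPM. *Guca2a* itself was at 104 to 706.9 normalised CPM in the positive libraries and at 2.67 to 120.5 in the negative ones, and it was called higher in the positive cells of all 4 regions. Region markers were read from lists for the duodenum, ileum and colon. The summed level of 5 genes of the duodenum and proximal small intestine was 132 to 170 in duodenal libraries and at most 80.8 elsewhere, and that of 4 ileal genes was 2185 to 2981 in positive ileal libraries and at most 236 outside the ileum, although the negative ileal libraries, at 170 to 294, overlapped positive ones of jejunum and colon. The sum of 3 colonic genes was 82.6 to 103 in colonic libraries and at most 27.9 elsewhere. The libraries are bulk samples of sorted cells, in which fewer cells of a type and less RNA per cell cannot be told apart.

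Long-chain fatty acids are activated to acyl-CoA by synthetases, carried into mitochondria as acylcarnitines and shortened in repeated cycles of dehydrogenation, hydration, dehydrogenation and thiolysis. Peroxisomes shorten very long and branched chains by a parallel set of enzymes. PPAR-alpha is a nuclear receptor that binds fatty acids and, with RXR and the coactivator PGC-1-alpha, raises transcription of many of these genes in liver, heart and the absorptive cells of the small intestine, where dietary fat is taken up.

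The sorts differed in these genes in a way that depended on the region. In the jejunum, 16 of the 38 genes were called higher and 2 lower in Venus-positive cells, with a median log2 fold change of 0.67 against -0.28 over all genes tested. In the ileum, 15 were called higher and 4 lower, with medians of 0.49 and -0.27. Without single libraries the lower calls ran from 1 to 4 in the jejunum and from 2 to 4 in the ileum. In the colon, 11 were called higher and 0 lower, with medians of 0.53 and 0. In the duodenum, 0 were called higher and 5 lower, with medians of -0.42 and -0.16. A gene was called where its adjusted p was under 0.05 (edgeR quasi-likelihood test, with Benjamini-Hochberg adjustment over all genes tested).

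Over all 15044 genes, the jejunum had 18.3% called higher and 25.6% lower, the ileum 17.9% and 20.6%, the colon 9.31% and 3.80%, and the duodenum 8.88% and 8.08%. The counts by role group given below, which rest on few genes each, are to be read against the same shares. Against these shares, the whole set held more higher calls than the background in jejunum, ileum and colon and fewer lower calls in jejunum and ileum. The 5 lower calls of the duodenum exceeded the background by few genes and fell to 1 under library size alone. For the counts of 0, edgeR gave 0 genes higher in the duodenum and 0 lower in the colon also at an unadjusted p under 0.05, and DESeq2 gave 0 for both. Scaling by library size alone moved the median of all genes in the duodenum by 0.43 and that of the 38 genes from -0.42 to 0.01, so that the sign of the set's median in that region depended on the scaling, while its distance from the median of all genes was -0.25 under TMM and -0.26 under library size alone.

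No gene of the set was called in the same direction in all 4 regions. This follows from the 0 higher calls in the duodenum and the 0 lower calls in the colon and is no separate result. 12 genes were called higher in both jejunum and ileum, against 14.1% of all genes: *Ppargc1a*, *Acsl5*, *Cpt2*, *Crat*, *Crot*, *Hadha*, *Acaa1a*, *Acaa1b*, *Ehhadh*, *Hsd17b4*, *Pex11a* and *Angptl4*. 9 genes were called in none of the 4 regions, against 43.8% of all genes: *Hadhb*, *Acaa2*, *Eci2*, *Decr1*, *Decr2*, *Etfdh*, *Acot2*, *Plin2* and *Ucp2*.

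**Figure D1:**
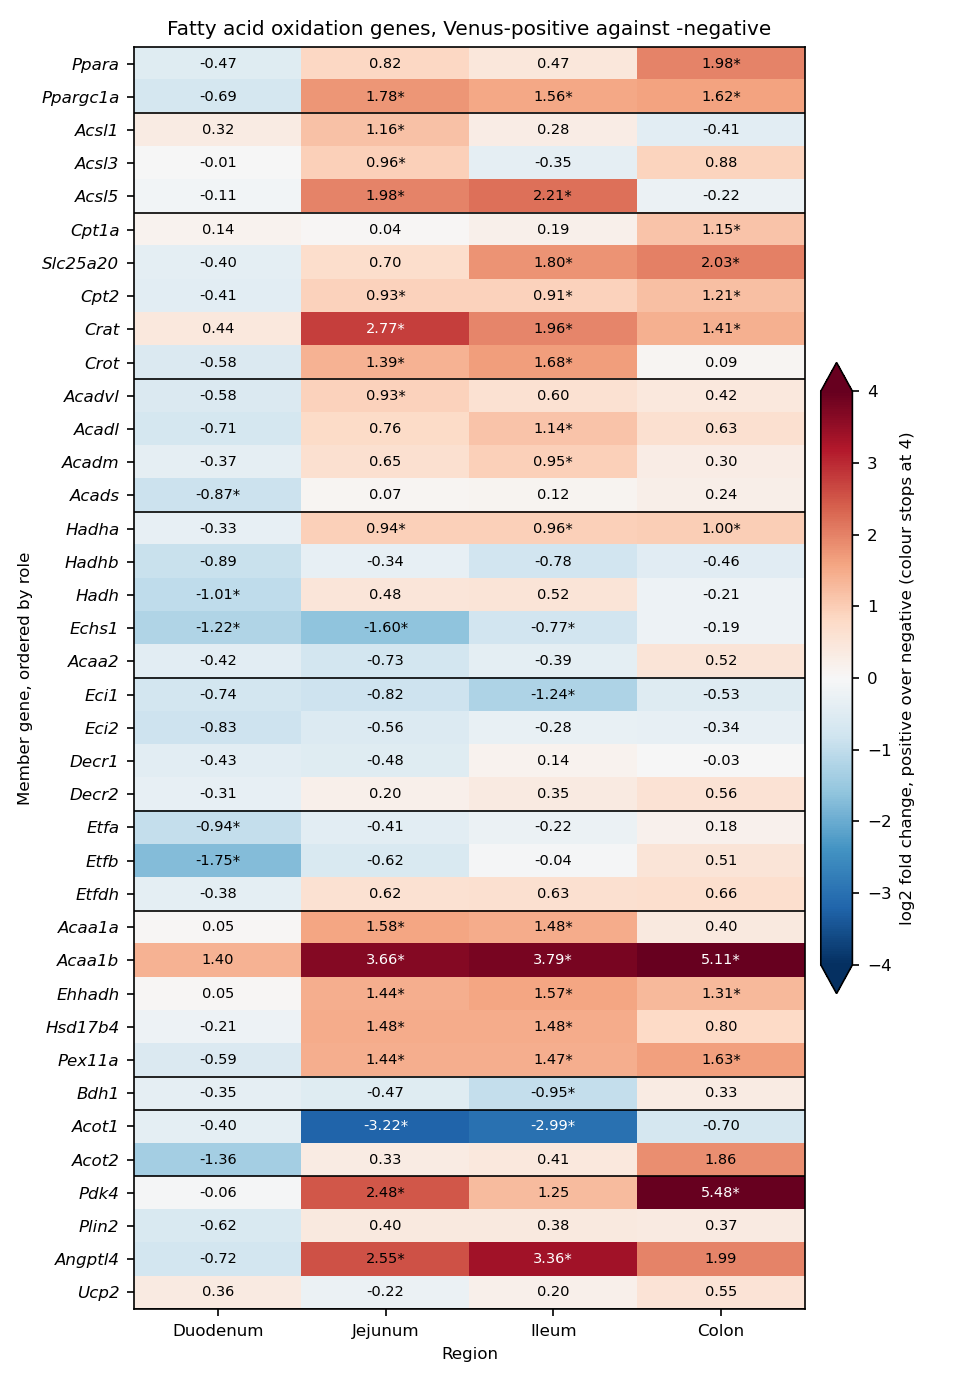
Log2 fold change of Venus-positive over Venus-negative cells for each of the 38 genes (rows, grouped by role) in each region (columns), from 3 libraries per group; an asterisk marks an adjusted p under 0.05 and colours stop at 4. Asterisks stand on red cells 16, 15 and 11 times in jejunum, ileum and colon and on none in the duodenum, where all 5 stand on blue cells.

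Summed over the 38 genes, positive cells had 1926 to 2593 normalised CPM in the jejunum and negative cells 1077 to 1635. The corresponding ranges were 1308 to 1649 and 788 to 1002 in the ileum, and 1320 to 1462 and 901 to 1148 in the colon. In these 3 regions every positive library lay above every negative one. In the duodenum the ranges overlapped, at 890 to 1288 in positive and 1217 to 1550 in negative cells.

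Markers of other cell types moved between the same groups, and their part in the result was not tested. The summed level of 13 enterocyte markers was 32965 to 40642 normalised CPM in positive and 3150 to 4195 in negative cells of the jejunum, 10646 to 21859 and 841 to 1343 in the ileum, 716 to 883 and 269 to 284 in the colon, and 2585 to 5580 and 2040 to 2804 in the duodenum. Of these markers, 13, 13, 6 and 3 were called higher in the positive cells of jejunum, ileum, colon and duodenum. Of 6 colonocyte markers, 5 were called higher in positive colonic cells, with sums of 1552 to 1739 against 123 to 289. Of 9 enteroendocrine markers, 8, 9, 7 and 5 were called lower in positive cells from duodenum to colon, with duodenal sums of 34.6 to 73.6 in positive and 1137 to 1436 in negative cells. All 9 goblet cell markers were called higher in the positive cells of every region, with duodenal sums of 53088 to 60537 in positive and 311 to 434 in negative cells, and sums of at most 10111 in positive cells of any other region. All 8 Paneth cell markers were called higher in the positive cells of duodenum, jejunum and ileum. Their duodenal sums were 24603 to 61686 in positive and 216 to 888 in negative cells, with at most 17561 in positive cells of any other region. Of 10 stem and proliferating cell markers, 4, 10, 10 and 6 were called lower in the positive cells of duodenum, jejunum, ileum and colon, with sums of 39.8 to 315 in positive and 1588 to 2576 in negative jejunal cells. Tuft cell markers summed to 9.22 to 14.4 in positive and 25.8 to 37.9 in negative duodenal cells, and to 4.01 to 6.30 and 14.0 to 55.6 in the jejunum. Their sums were 3.53 to 5.47 and 31.7 to 44.6 in the ileum, and 12.1 to 18.7 and 18.8 to 57.4 in the colon.

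Other sources were low. The summed level of 9 leukocyte markers was at most 29.4 normalised CPM in any library, that of 9 stromal, endothelial and muscle markers at most 13.1, and that of 5 adipocyte markers at most 0.721, with *Adipoq* at 0 in all 24 libraries. The share of counts on mitochondrially encoded genes was lower in positive cells of all 3 small intestinal regions, at 32.3% to 46.6% against 64.6% to 76.4% for the duodenum, 47.1% to 60.6% against 61.2% to 78.8% for the jejunum, and 41.0% to 55.4% against 64.7% to 70.9% for the ileum. In the colon the sorts overlapped, at 68.6% to 77.9% and 65.3% to 80.7%. The part of this share in the results was not tested either.

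**Figure D2:**
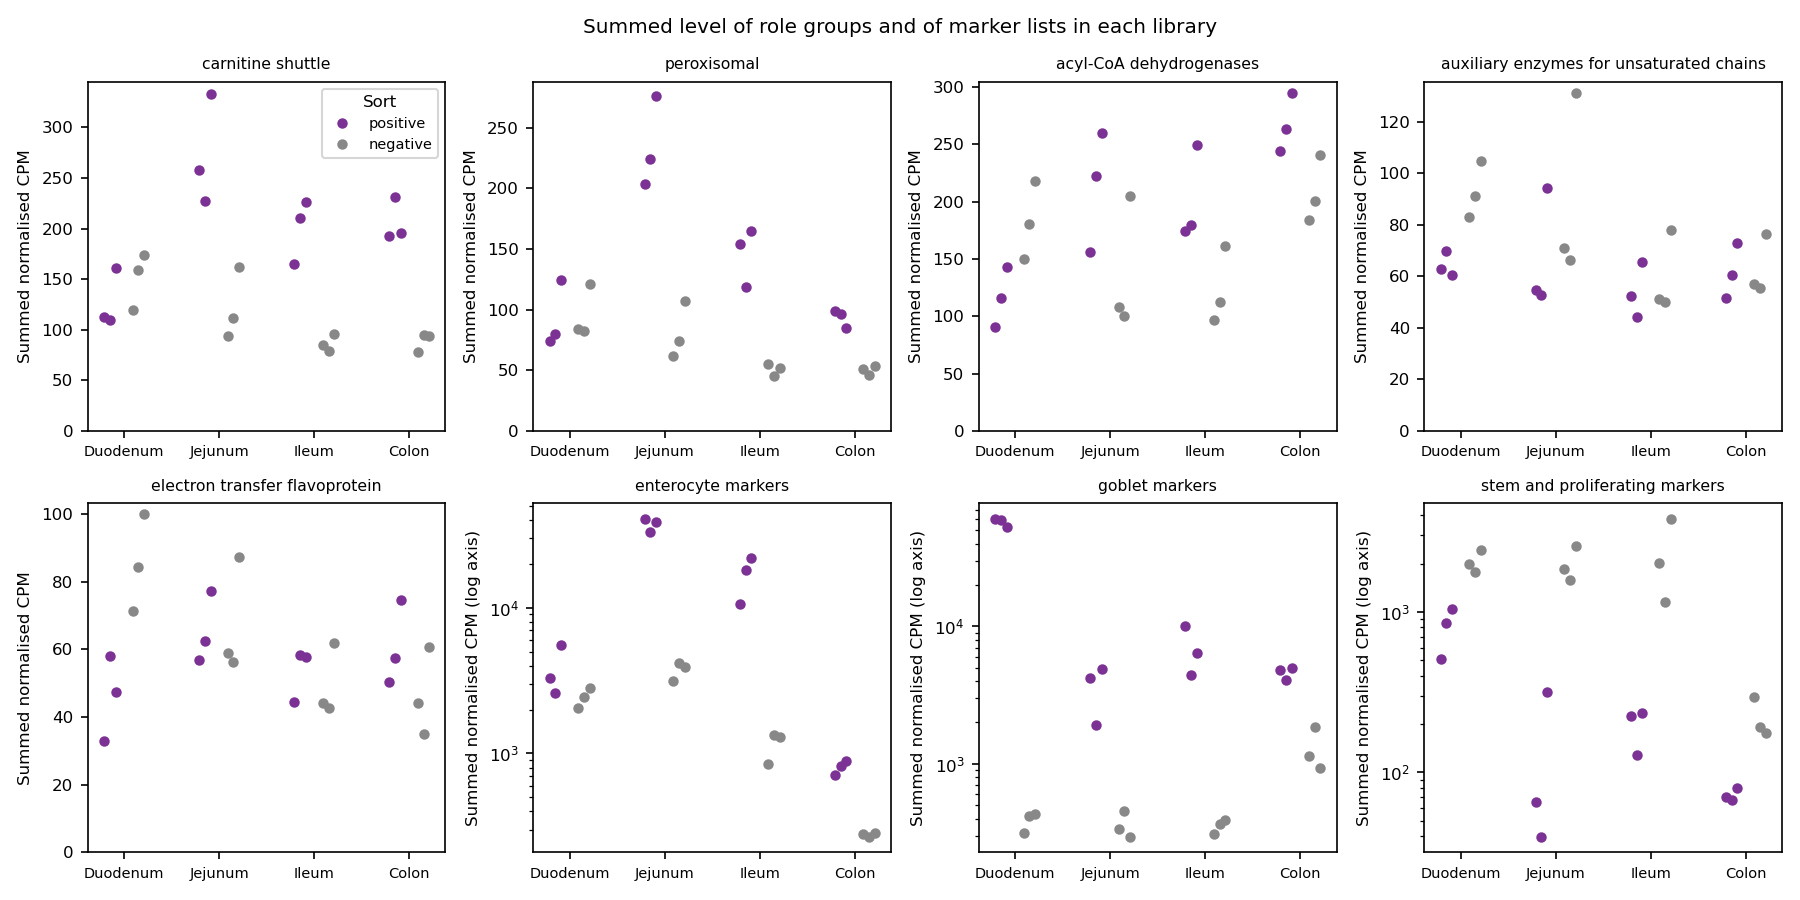
Summed normalised CPM of 5 role groups and of 3 lists of cell type markers in each library, by region, with Venus-positive libraries in purple and Venus-negative in grey; marker panels have a log axis. The carnitine shuttle and peroxisomal sums of positive libraries lie above all negative ones of the same region in jejunum, ileum and colon but not in the duodenum, and the enterocyte sum shows its widest gap in jejunum and ileum.

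The regulators were not called in the same regions. *Ppara* encodes PPAR-alpha and *Ppargc1a* its coactivator PGC-1-alpha. In the colon, *Ppara* was at 7.80, 10.5 and 6.45 normalised CPM in positive and 1.08, 2.05 and 3.06 in negative libraries, so that all positive libraries lay above all negative ones (log2 fold change 1.98 ± 0.46 (SE), adjusted p = 0.00380). In the other regions it was at 2.96 to 10.2 in positive and 2.27 to 7.21 in negative libraries, and its log2 fold changes of -0.47, 0.82 and 0.47 in duodenum, jejunum and ileum were not called. The jejunal difference was called under library size alone. *Ppara* was not among the genes that passed the interaction tests given below. *Ppargc1a* was at 54.8, 56.1 and 47.0 in positive and 14.1, 16.8 and 15.1 in negative cells of the jejunum (3.43-fold, adjusted p = 2.89e-05). It was at 30.9, 12.6 and 17.7 against 9.82, 6.70 and 4.16 in the ileum, and at 28.3, 28.7 and 21.2 against 8.39, 8.86 and 8.16 in the colon. The groups did not overlap in any of these 3 regions, and the gene was called higher in each (log2 fold changes of 1.56 in the ileum and 1.62 in the colon). In the duodenum the order was the opposite, with 8.09, 8.54 and 6.42 in positive and 11.7, 15.3 and 10.2 in negative libraries, but the log2 fold change of -0.69 ± 0.31 (SE), adjusted p = 0.127, was not called.

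Of the 3 long-chain acyl-CoA synthetases, which activate fatty acids, all were called higher in positive jejunal cells, 1 in the ileum and 0 in colon and duodenum. For these 2 regions edgeR's unadjusted p was under 0.05 for *Acsl3* in the colon alone. *Acsl5* was at 419, 452 and 636 normalised CPM in positive and 96.1, 115 and 173 in negative cells of the jejunum (3.93-fold, adjusted p = 9.66e-06) and at 161, 257 and 294 against 37.7, 53.8 and 61.9 in the ileum (4.64-fold, adjusted p = 3.05e-06). In the colon the level was low in both sorts, at 27.0 to 30.0 and 27.5 to 38.7, and in the duodenum the sorts overlapped at 90.2 to 166 and 98.1 to 155. Per kilobase of exon, *Acsl5* was the most abundant of the 38 genes in positive cells of jejunum and ileum, with a mean of 103 and 48.8 normalised CPM per kb. *Acsl1* was at 29.1, 23.5 and 27.1 against 11.2, 13.6 and 10.9 in the jejunum, without overlap (log2 fold change 1.16 ± 0.26 (SE), adjusted p = 6.71e-04), and was lower in the colon, at 5.31 to 7.55 in positive and 8.08 to 9.95 in negative cells, a separation in the other direction that was not called. *Acsl3* was highest in the colon, with 68.2 to 74.6 in positive colonic cells against 6.43 to 16.9 in positive ileal cells. Its means in positive cells were 2.96, 7.53, 2.52 and 16.2 normalised CPM per kb from duodenum to colon. The call of *Acsl3* in the jejunum (0.96, adjusted p = 0.0301) was lost without any 1 of 4 jejunal libraries, positive 1 and negative 1, 2 and 3.

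The carnitine shuttle moves acyl groups across membranes. 3 of its 5 genes were called higher in the jejunum, 4 in the ileum, 4 in the colon and 0 in the duodenum, where edgeR's unadjusted p was under 0.05 for 0 as well. *Crat*, the carnitine acetyltransferase, was at 54.8, 52.2 and 55.2 in positive and 7.66, 9.33 and 6.78 in negative cells of the jejunum (6.82-fold, adjusted p = 2.53e-06). It was at 24.3, 27.6 and 23.2 against 6.64, 8.11 and 4.43 in the ileum (3.90-fold, adjusted p = 1.79e-04) and at 15.2, 14.1 and 10.4 against 1.20, 6.67 and 6.80 in the colon (2.65-fold, adjusted p = 0.0158). The sorts were fully separated in these 3 regions and overlapped in the duodenum, at 12.7, 7.64 and 20.1 and 7.23, 10.9 and 11.7. *Slc25a20*, the carrier that exchanges acylcarnitine for carnitine across the inner mitochondrial membrane, was at 58.4, 78.9 and 64.7 in positive and 9.47, 20.4 and 19.5 in negative colonic cells (4.08-fold, adjusted p = 4.52e-04) and at 22.0, 41.4 and 50.4 against 7.67, 11.6 and 13.5 in the ileum (3.48-fold, adjusted p = 3.27e-04). Its jejunal levels overlapped, at 26.0 to 48.9 and 12.7 to 35.0, and the log2 fold change of 0.70 was not called.

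*Cpt1a*, which makes acylcarnitine at the outer mitochondrial membrane and is regarded as the controlling step of the pathway, stood apart from the rest of the shuttle. Its levels in the small intestine were 32.5, 28.2 and 55.8 in positive and 32.7, 31.5 and 41.6 in negative duodenal libraries, 21.2, 33.5 and 38.4 and 25.0, 32.2 and 33.3 in the jejunum, and 49.4, 26.1 and 33.9 and 40.8, 28.8 and 26.3 in the ileum. The sorts overlapped in each of these regions, with log2 fold changes of 0.14 ± 0.30, 0.04 ± 0.30 and 0.19 ± 0.29 (SE). In the colon it was at 85.3, 88.8 and 66.3 in positive against 41.5, 39.3 and 28.0 in negative cells (2.21-fold, adjusted p = 0.00955), again without overlap between sorts, although the call was lost without positive library 2 or negative library 3. *Cpt2*, the enzyme on the inner side of the membrane, was called higher in jejunum, ileum and colon (log2 fold changes of 0.93, 0.91 and 1.21), although each call was lost without some single libraries, as listed at the end. *Crot*, the peroxisomal carnitine octanoyltransferase, was called higher in jejunum and ileum (1.39 and 1.68) and differed by 0.09 ± 0.36 (SE) in the colon.

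**Figure D3:**
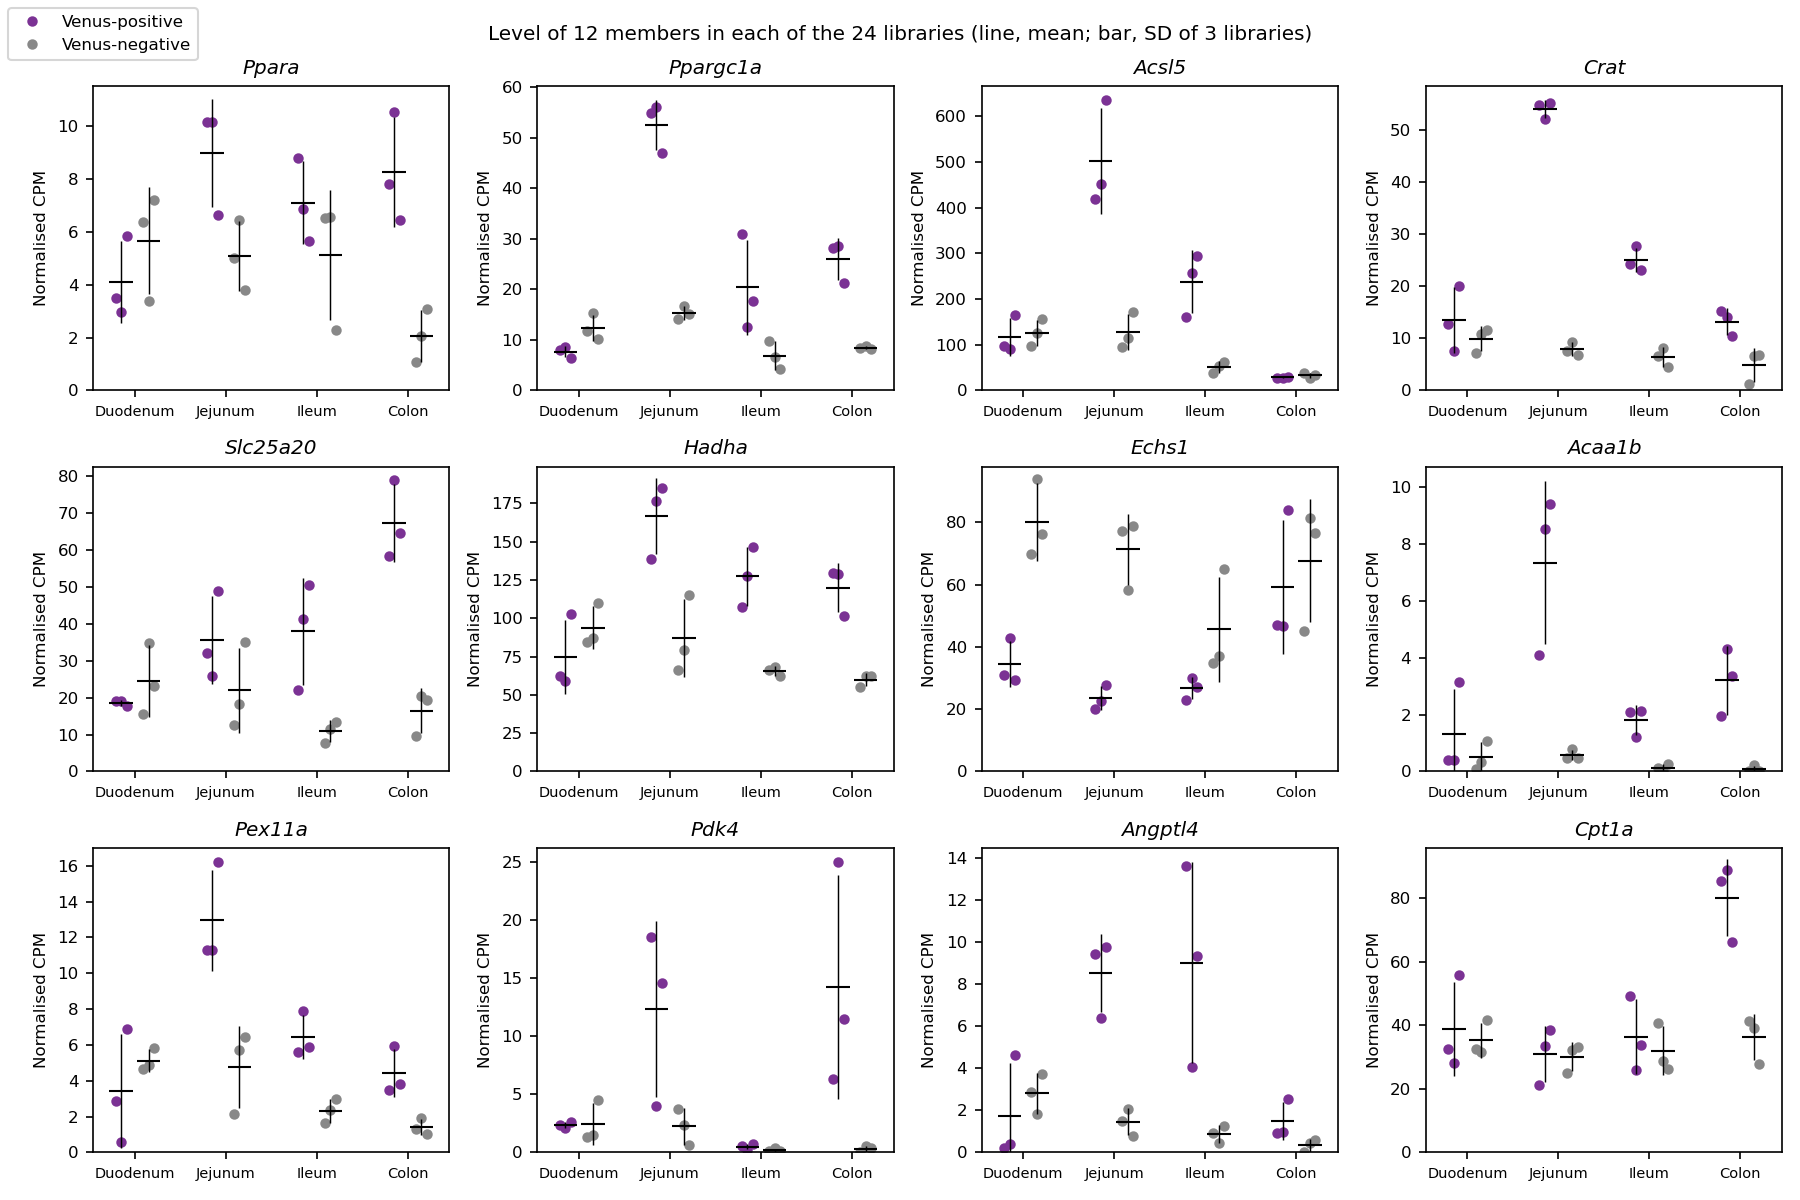
Normalised CPM of 12 of the genes in each of the 24 libraries (points), with the mean (line) and SD of 3 libraries (bar, cut at 0), by region and sort; vertical axes differ between panels. Positive libraries of *Crat* sit at 52.2 to 55.2 in the jejunum, above all other groups, and those of *Cpt1a* separate from the negative ones in the colon alone.

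Of the 4 acyl-CoA dehydrogenases, which start each mitochondrial cycle and differ in chain length preference, 1 was called higher in the jejunum and 2 in the ileum, 0 were called in the colon and 1 was called lower in the duodenum. In the colon edgeR's unadjusted p was under 0.05 for 0 of them. Over all genes, 18.3% and 17.9% were called higher in jejunum and ileum and 8.08% lower in the duodenum. In the colon 9.31% were called higher and 3.80% lower. With 4 genes, these counts differ from the background by few genes. *Acadl*, the long-chain enzyme, was at 46.6, 62.9 and 86.2 normalised CPM in positive and 19.3, 31.8 and 37.7 in negative cells of the ileum (log2 fold change 1.14 ± 0.36 (SE), adjusted p = 0.0119). Its jejunal levels were 34.0, 53.3 and 90.0 and 20.8, 29.9 and 54.1, which overlapped, and the duodenal ones 28.4, 30.0 and 51.3 and 46.9, 53.6 and 78.9, with neither called (0.76 and -0.71). The jejunal difference was called under 5 of the 8 alternatives that kept all libraries (RLE scaling, library size alone, DESeq2, no filter and the i5 covariate) and the duodenal one with the i5 covariate. *Acadm*, the medium-chain enzyme, was called higher in the ileum (0.95, adjusted p = 0.0240), and *Acadvl*, the very long-chain enzyme, in the jejunum (0.93, adjusted p = 0.0123). The values of *Acadvl* are uncertain, since 42.9% of its exon bases lie opposite *Dvl2* and the strand setting of the counts is not given in the sources used here. *Acads*, the short-chain enzyme, had its highest levels in the colon whatever the sort, at 109, 115 and 138 in positive and 80.9, 109 and 117 in negative cells. In the duodenum *Acads* was lower in positive cells, at 21.1, 29.7 and 27.2 against 36.6, 54.1 and 51.9 (1.83-fold lower, adjusted p = 0.0270), without overlap.

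The later steps of the mitochondrial cycle did not move as a block. *Hadha*, the alpha subunit of the trifunctional protein, was at 139, 177 and 185 in positive and 66.0, 79.3 and 115 in negative jejunal cells, 108, 128 and 147 and 66.5, 68.2 and 62.1 in the ileum, and 129, 129 and 101 and 55.1, 62.6 and 62.2 in the colon. The groups were separated in all 3, and the gene was called higher in each, with folds of 1.92, 1.94 and 1.999. *Echs1*, the short-chain enoyl-CoA hydratase, went the other way. It was at 30.8, 42.9 and 29.5 in positive and 69.9, 94.0 and 76.3 in negative cells of the duodenum (2.32-fold lower, adjusted p = 0.00514) and at 20.1, 22.8 and 27.7 against 77.0, 58.1 and 78.8 in the jejunum (3.03-fold lower, adjusted p = 7.65e-05). In the ileum the levels of 22.9, 30.1 and 27.2 and 34.8, 37.0 and 65.0 were closer, and the call (-0.77, adjusted p = 0.0388) was lost without any 1 of 4 ileal libraries and under 4 alternatives that kept all libraries. In the colon the sorts overlapped, at 46.8 to 84.0 and 44.9 to 81.4. *Hadh*, the hydroxyacyl-CoA dehydrogenase, was among the 4 most abundant of the set per kilobase in every group and was called lower in positive cells of the duodenum alone (75.8 to 119 against 155 to 217, log2 fold change -1.01 ± 0.31 (SE), adjusted p = 0.0225). The duodenal call of *Hadh* was lost without positive library 1 or 2 or negative library 2 or 3.

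*Hadhb*, the beta subunit that pairs with the product of *Hadha*, was at 2.46 to 10.9 normalised CPM over all 24 libraries and was called in no region. Per kilobase of exon, its group means ran from 0.501 to 0.895 in positive cells, against 8.55 to 19.1 for *Hadha*. The genes stand head to head on chromosome 5 of GRCm38, with *Hadha* at chr5:30118304-30155162 on the minus strand and *Hadhb* at chr5:30155248-30184593 on the plus strand, and 85 bases between their starts in the GENCODE M21 annotation. Of the windows of 50 bases in *Hadhb* transcripts, 19.7% also occur in other genes, among them the pseudogenes *Gm13910* and *Gm9108*. The deposited table holds reads that mapped to more than 1 place on a line of their own, outside the genes, so the level of *Hadhb* is uncertain, and the part of this in its low level was not tested.

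None of the auxiliary enzymes for unsaturated chains was called higher in any region. *Eci1*, the enoyl-CoA isomerase, was called lower in positive ileal cells, at 9.80, 3.36 and 8.09 against 16.6, 13.2 and 20.3 (2.36-fold, adjusted p = 0.00821), without overlap, and this call was lost without positive library 2. Its log2 fold changes elsewhere were -0.74, -0.82 and -0.53 in duodenum, jejunum and colon. *Eci2* and the dienoyl-CoA reductases *Decr1* and *Decr2* were called in no region. At an unadjusted p under 0.05 in edgeR no gene of this group was higher in positive cells of any region.

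The electron transfer flavoprotein passes electrons from the dehydrogenases to the respiratory chain. Both of its subunits were called lower in positive cells of the duodenum and in no other region. *Etfb* was at 2.56, 4.02 and 5.40 in positive and 11.2, 14.3 and 14.7 in negative duodenal libraries (3.36-fold lower, adjusted p = 0.00266), without overlap. In the other regions its positive libraries lay at 3.18 to 16.1 and its negative ones at 3.84 to 14.3. The values of *Etfb* are uncertain, since 58.2% of its exon bases are shared on the same strand with *Gm45233* in GENCODE M21. *Etfa* was at 21.0, 37.0 and 22.7 against 41.5, 49.5 and 64.6 (-0.94, adjusted p = 0.0479), a call lost under 4 of the alternatives that kept all libraries and without any 1 of 4 duodenal libraries. *Etfdh*, the oxidoreductase that takes up these electrons, was called in no region, with log2 fold changes of -0.38, 0.62, 0.63 and 0.66 from duodenum to colon.

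The peroxisomal group was called in full in jejunum and ileum. All 5 of its genes were called higher in positive cells of jejunum and ileum, 3 in the colon and 0 in the duodenum, where edgeR's unadjusted p was under 0.05 for 0. The 250 bases before the RefSeq start of 4 of these genes are shown because they moved together in jejunum and ileum, along with those of *Cpt1a*, which did not move there. The sequences are of GRCm38.p6 from RefSeq, written in the direction of transcription, and capitals mark, on either strand, GC boxes, whose letters are GGGCGG, the box of letters CCAAT and, as the element of nuclear receptors, AGGTCA. The window of *Acaa1a* lies at chr9:119341044-119341293 (plus strand), that of *Acaa1b* at chr9:119157094-119157343 (minus strand), that of *Ehhadh* at chr16:21787835-21788084 (minus strand), that of *Pex11a* at chr7:79743132-79743381 (minus strand) and that of *Cpt1a* at chr19:3323051-3323300 (plus strand).
Acaa1a: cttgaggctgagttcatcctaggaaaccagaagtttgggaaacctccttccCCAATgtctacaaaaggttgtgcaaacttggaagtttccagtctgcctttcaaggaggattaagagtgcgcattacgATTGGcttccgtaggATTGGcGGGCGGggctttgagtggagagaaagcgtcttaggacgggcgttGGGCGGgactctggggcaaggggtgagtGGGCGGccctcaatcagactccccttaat
Acaa1b: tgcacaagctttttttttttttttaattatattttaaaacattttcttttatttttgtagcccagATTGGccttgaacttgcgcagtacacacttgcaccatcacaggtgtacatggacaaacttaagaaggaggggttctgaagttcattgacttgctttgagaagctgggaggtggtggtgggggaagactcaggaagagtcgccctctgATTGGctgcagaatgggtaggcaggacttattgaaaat
Ehhadh: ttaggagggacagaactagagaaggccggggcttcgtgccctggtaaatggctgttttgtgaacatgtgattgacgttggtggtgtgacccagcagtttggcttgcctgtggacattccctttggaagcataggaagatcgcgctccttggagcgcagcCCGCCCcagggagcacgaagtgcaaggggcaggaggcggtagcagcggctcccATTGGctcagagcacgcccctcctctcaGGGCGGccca
Pex11a: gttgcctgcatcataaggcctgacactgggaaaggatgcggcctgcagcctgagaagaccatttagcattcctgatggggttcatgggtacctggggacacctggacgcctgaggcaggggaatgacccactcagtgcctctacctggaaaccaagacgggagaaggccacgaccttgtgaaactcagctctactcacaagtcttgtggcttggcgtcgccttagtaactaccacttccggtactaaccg
Cpt1a: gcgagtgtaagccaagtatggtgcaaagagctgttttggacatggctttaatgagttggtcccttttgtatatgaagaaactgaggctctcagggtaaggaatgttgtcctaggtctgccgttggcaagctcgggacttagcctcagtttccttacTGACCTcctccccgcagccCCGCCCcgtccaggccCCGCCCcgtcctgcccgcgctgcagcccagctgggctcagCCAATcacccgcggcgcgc

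Promoters of 33 of the 38 genes were matched by symbol in the RefSeq table. A gene of the set was counted where any window under its symbol held the letters. The share of all windows counts each of the 32851 windows singly, so that the 2 measures are unlike and their difference is not read as a result. In the direct repeat DR1, to which PPAR-alpha and RXR are known to bind, AGGNCA stands at both ends with 1 free base between. It was found in 0 of these 33 genes and in 0.338% of 32851 windows of all genes. This says only that these letters are not in the 250 bases searched. AGGTCA alone, which is part of that repeat, was found in 5 of 33 (*Cpt1a*, *Acadvl*, *Acadm*, *Echs1* and *Plin2*) and in 14.0% of all windows. GC boxes were found in 20 of 33 and in 32.7% of all windows, CCAAT boxes in 17 of 33 and in 33.8%, and the TATA box TATAAA in 0 of 33 and in 12.4%. The window of *Pex11a* held none of the 5 motifs, that of *Acaa1b* held CCAAT boxes alone, and that of *Acaa1a* held both GC boxes and CCAAT boxes.

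*Acaa1b*, 1 of the paired peroxisomal thiolase genes, was at 4.09, 8.53 and 9.41 normalised CPM in positive and 0.455, 0.772 and 0.484 in negative cells of the jejunum (12.7-fold, adjusted p = 0.00188). In the ileum it was at 2.10, 1.20 and 2.13 against 0.124, 0 and 0.277, which is 88 counts in all against 8, a ratio of 15.9 (95% exact interval of counting error 7.73 to 38.0). In the colon it was at 1.93, 4.32 and 3.36 against 0, 0.220 and 0, or 138 counts against 3, a ratio of 36.5 (12.2 to 179). The sorts were separated in these 3 regions and all 3 differences were called, whereas the duodenal libraries overlapped, at 0.410, 0.410 and 3.15 and 0.0702, 0.324 and 1.08. Its paralog *Acaa1a* was more abundant, at 58.4, 71.4 and 65.1 against 20.9, 23.1 and 21.2 in the jejunum (2.99-fold, adjusted p = 5.99e-06) and 38.1 to 43.8 against 13.6 to 16.0 in the ileum (2.78-fold), and was not called in the colon (0.40 ± 0.24, SE). Reads can be split between these genes: 39.6% of the windows of 50 bases in *Acaa1b* and 17.1% of those in *Acaa1a* occur in another gene, mostly in each other, and the part of this in their values was not tested.

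*Pex11a*, a peroxisome division protein and known PPAR-alpha target, was at 11.3, 11.3 and 16.2 against 2.12, 5.73 and 6.41 in the jejunum, 5.60, 7.87 and 5.88 against 1.65, 2.36 and 2.99 in the ileum and 3.48, 5.95 and 3.81 against 1.32, 1.90 and 1.02 in the colon. The sorts did not overlap in these 3 regions (log2 fold changes of 1.44, 1.47 and 1.63), but the colonic call had an adjusted p of 0.0493 and was lost without any 1 of the 6 colonic libraries and under 4 alternatives that kept them all. In the duodenum the positive libraries of *Pex11a* were at 0.575 to 6.87 and the negative ones at 4.63 to 5.84, with overlap. *Ehhadh*, the peroxisomal bifunctional enzyme, was at 57.8, 49.9 and 73.9 against 16.6, 10.8 and 39.2 in the jejunum (2.72-fold), 32.8 to 45.8 against 11.4 to 14.6 in the ileum (2.96-fold) and 20.4 to 32.0 against 7.84 to 14.3 in the colon (2.48-fold). It overlapped in the duodenum, at 24.6 to 45.1 and 26.4 to 45.0. *Hsd17b4*, its counterpart for branched chains, was called higher in jejunum and ileum with a log2 fold change of 1.48 in each and was not called in the colon (0.80, adjusted p = 0.0971).

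*Bdh1*, which interconverts the ketone bodies acetoacetate and beta-hydroxybutyrate, was called lower in positive cells of the ileum, at 21.3, 15.1 and 19.2 against 34.5, 31.9 and 40.8 (1.93-fold, adjusted p = 0.00268), without overlap. In the colon its order was the opposite, with 41.3, 43.7 and 33.6 in positive and 31.3, 33.3 and 29.8 in negative libraries, but 0.33 was not called. *Acot1*, the cytosolic acyl-CoA thioesterase, was low throughout. It was at 0, 0 and 0.802 in positive and 3.11, 1.42 and 2.72 in negative jejunal cells and at 0.431, 0.361 and 0 against 2.43, 1.27 and 2.99 in the ileum, so that positive libraries were at or near 0 and were called lower in both regions (adjusted p = 0.0132 and 0.0205). The jejunal call of *Acot1* was lost without positive library 1 or 2 and the ileal call without positive or negative library 3. In duodenum and colon the sorts overlapped, at 0.903 to 2.70 in positive and 0.360 to 6.29 in negative libraries. Its mitochondrial relative *Acot2* was called in no region, and 27.7% of the windows of *Acot2* and 19.2% of those of *Acot1* occur in other genes, chiefly of the same family, so that these values are uncertain.

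The 4 further PPAR-alpha targets differed from each other. *Pdk4*, the kinase that restrains pyruvate oxidation, was at 6.34, 25.0 and 11.5 normalised CPM in positive colonic cells and 0, 0.513 and 0.340 in negative ones, without overlap and with the smallest adjusted p of the set in that region (3.70e-05 in edgeR). In the jejunum it was at 18.6, 3.96 and 14.6 against 3.72, 2.38 and 0.605 (2.48 ± 0.67 (SE), adjusted p = 0.00330), and in the ileum it was near the floor in both sorts, at 0.538, 0.240 and 0.736 and 0.124, 0.353 and 0.111. The duodenal libraries of *Pdk4* overlapped, at 2.36, 2.13 and 2.59 and 1.33, 1.49 and 4.54. *Angptl4*, a secreted inhibitor of lipoprotein lipase, was at 9.46, 6.41 and 9.77 against 1.52, 2.06 and 0.786 in the jejunum (5.86-fold, adjusted p = 0.00698) and at 13.6, 4.09 and 9.34 against 0.908, 0.458 and 1.27 in the ileum (10.3-fold, adjusted p = 9.88e-04). In the colon the groups of 0.927, 0.991 and 2.52 and 0, 0.439 and 0.595 did not overlap, but the difference was not called (adjusted p = 0.131). In the duodenum, positive libraries of *Angptl4* were at 0.205, 0.410 and 4.61 and negative ones at 2.88, 1.82 and 3.75, with 1 positive library well above its group. Without that library, positive library 3, the duodenal log2 fold change moved from -0.72 to -3.13 and was called (edgeR adjusted p = 0.0127).

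*Plin2*, which coats lipid droplets, and *Ucp2*, an uncoupling protein homologue of the inner mitochondrial membrane, were called in no region. *Plin2* was at 9.83, 5.09 and 13.3 in positive and 13.3, 13.3 and 16.4 in negative duodenal cells, 24.1, 11.2 and 25.8 and 18.6, 10.5 and 17.3 in the jejunum, 12.1, 14.4 and 11.5 and 11.6, 5.96 and 11.6 in the ileum, and 17.2, 18.1 and 21.3 and 15.3, 12.5 and 16.1 in the colon. Its log2 fold changes ran from -0.62 in the duodenum, where positive libraries lay below the negative ones by a small margin, to 0.40 in the jejunum, where the sorts overlapped. *Ucp2* was at 116, 126 and 144 in positive and 108, 114 and 80.7 in negative duodenal cells, 64.2 to 79.3 and 79.0 to 91.5 in the jejunum, 81.3 to 99.4 and 61.4 to 86.2 in the ileum, and 138, 143 and 126 and 109, 89.8 and 79.6 in the colon. Its log2 fold changes were 0.36 ± 0.24, -0.22 ± 0.24, 0.20 ± 0.24 and 0.55 ± 0.24 (SE) from duodenum to colon. The positive libraries lay above the negative ones in duodenum and colon, but neither difference was called.

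Whether the sorts differed by another amount in the duodenum than in jejunum and ileum was tested as an interaction. The log2 fold change of positive over negative cells was called lower in the duodenum for 18 of the 38 genes and higher for 0, against 7.90% and 9.60% of all genes. The median of the interaction was -1.22 for the set and 0.16 for all genes. The count of 18 fell to 7 under library size alone and to 12 without positive duodenal library 1. The largest were *Angptl4* (-3.68 ± 0.93, SE, adjusted p = 0.00620), *Ppargc1a* (-2.36 ± 0.38, adjusted p = 8.91e-05), *Acsl5* (-2.20 ± 0.38, adjusted p = 1.59e-04) and *Crot* (-2.11 ± 0.44, adjusted p = 0.00110). 4 of 5 carnitine shuttle genes, all 4 acyl-CoA dehydrogenases and 4 of 5 peroxisomal genes were among the 18, and 0 of the 4 auxiliary enzymes were. At an unadjusted p under 0.05, edgeR gave 1 gene with a higher fold change in the duodenum and DESeq2 also gave 1, with 0 past its adjusted threshold. The same interaction was called negative for all 13 enterocyte markers and positive for all 9 goblet markers, and their part in the result was not tested.

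**Figure D4:**
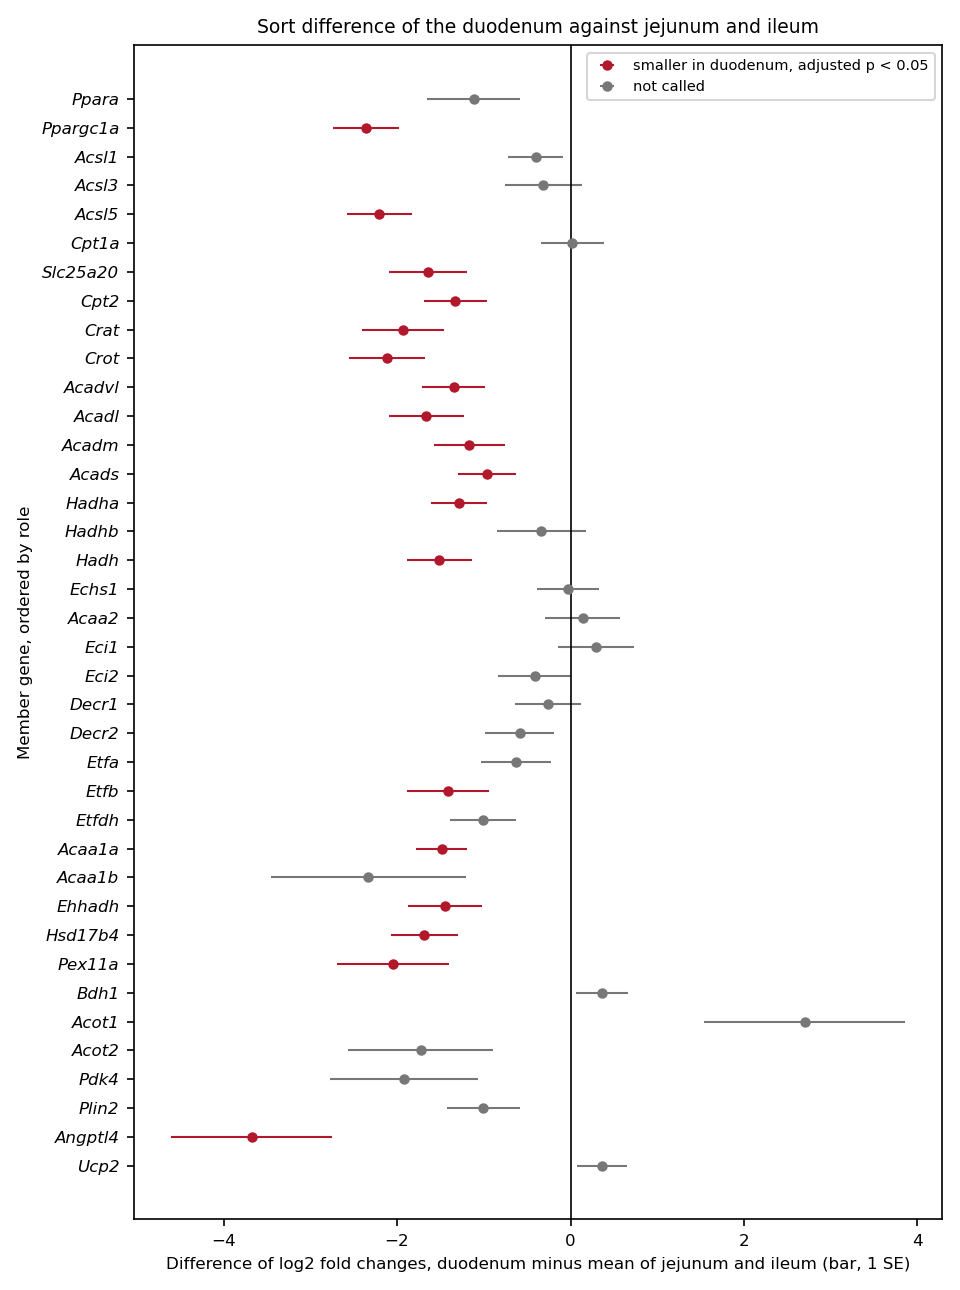
For each of the 38 genes, the log2 fold change between sorts in the duodenum minus the mean of that in jejunum and ileum (point, bar of 1 SE); red points passed an adjusted p under 0.05. All 18 red points lie left of 0, from -0.96 to -3.68, and *Cpt1a*, *Echs1* and *Acaa2* lie near 0.

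Against the same mean of jejunum and ileum, the colon had a higher log2 fold change of positive over negative cells for 2 genes and a lower one for 4, where 7.03% and 2.96% of all genes were called. Under RLE scaling these counts were 1 and 4. *Pdk4* (3.62 ± 0.96, SE, adjusted p = 0.0149) and *Bdh1* (1.04 ± 0.30, adjusted p = 0.0241) were higher in the colon. *Acsl5* (-2.32), *Crot* (-1.44), *Acsl1* (-1.13) and *Acaa1a* (-1.13) were lower. Without positive colonic library 1 or without positive colonic library 2, this count of 6 genes fell to 2. Between jejunum and ileum 0 genes of the set differed in either direction, where 0.266% of all genes were called. edgeR gave 3 at an unadjusted p under 0.05, DESeq2 gave 2, and DESeq2 called 0.

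Positive cells were also compared between neighbouring regions. These comparisons share the positive libraries with those above, so that each is given with its own values. Between duodenum and jejunum, 18 genes were called lower and 2 higher in the duodenum, against 14.8% and 18.4% of all genes, with *Ppargc1a* (-2.77, adjusted p = 2.13e-07) and *Acsl5* (-2.10, adjusted p = 7.84e-06) lower and *Ucp2* (0.84, adjusted p = 0.00667) and *Acot1* higher. Between jejunum and ileum, 5 genes were called higher in the jejunum and 0 lower, against 2.15% and 3.00%: *Pdk4* (4.61), *Acsl3* (1.59), *Ppargc1a* (1.37), *Acsl5* (1.08) and *Acsl1* (1.03). For the genes lower in the jejunum, edgeR gave 0 at an unadjusted p under 0.05 and DESeq2 called 0. The 5 calls fell to 1 without positive ileal library 2 and to 3 without positive jejunal library 1. Between ileum and colon, 5 genes were called higher in the ileum and 8 lower, against 10.7% and 11.0%. This balance depended on the scaling: library size alone, which moved the median of all genes from -0.14 to 0.37, gave 8 higher and 3 lower. *Acsl5* (3.07), *Angptl4* (2.59) and *Crot* (1.71) had the widest margins towards the ileum, and *Pdk4* (-4.82), *Acsl3* (-2.69) and *Acaa2* (-1.46) were among those higher in the colon.

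Negative cells were compared in the same way. Their median over the set between jejunum and ileum was 0.52, against 0.54 in positive cells. Fewer genes were called in negative cells in each comparison, and this contrast was not tested. Between duodenum and jejunum 0 genes of the set were called, where 0.725% of all genes were called in either direction. edgeR gave 2 at an unadjusted p under 0.05, DESeq2 gave 3, and DESeq2 called 0. Between jejunum and ileum 3 were called higher in the jejunum, against 1.70% of all genes: *Pdk4* (3.39), *Acsl5* (1.32) and *Ppargc1a* (1.15), of which *Pdk4* was at or near the floor in the ileum. Between ileum and colon 2 were called lower in the ileum, against 2.22% of all genes: *Acsl3* (-1.46) and *Acads* (-1.31). Library size alone reversed this balance, with 0 called lower and 2 higher in the ileum, as the median of all genes moved from 0.14 to 0.62. For the opposite directions, edgeR gave 0 genes lower in the jejunum and 2 higher in the ileum at an unadjusted p under 0.05, and DESeq2 called 0 in both. The count between jejunum and ileum fell to 1 without any 1 of negative libraries 1 and 3 of the jejunum and 1 and 2 of the ileum, and that between ileum and colon fell to 1 without any 1 of negative libraries 1 and 2 of the ileum and 3 of the colon.

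The wider pathway was read from 6 lists with 84 genes outside the set, of which 70 were tested. In positive cells, the jejunum had 32 of these called higher and 10 lower, the ileum 30 and 9, the colon 18 and 2, and the duodenum 6 and 4. Over all genes the shares called higher were 18.3%, 17.9%, 9.31% and 8.88% in the same order, and those called lower 25.6%, 20.6%, 3.80% and 8.08%, so that the duodenal counts are near the background. In the list of peroxisomal oxidation and transport, 13 of 21 tested genes were called higher in the jejunum, 12 in the ileum, 8 in the colon and 2 in the duodenum. Among its called changes were those of *Acot12* (3.70 in the jejunum) and *Acot4* (3.41 in the ileum), which release fatty acids from acyl-CoA or its derivatives.

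Among 15 tested PPAR-alpha targets and partners, 9 were called higher in the jejunum, 9 in the ileum, 5 in the colon and 2 in the duodenum. The lipid droplet protein gene *Cidec* had log2 fold changes of 3.77 in the jejunum and 3.93 in the ileum, was called higher in the colon as well (2.40 to 5.66 against 0.0732 to 0.240 normalised CPM) and differed by 0.42 ± 0.63 (SE) in the duodenum. *Creb3l3*, a transcription factor of lipid metabolism, had 3.49 and 4.79 in jejunum and ileum. *Fgf21*, a hormone gene that PPAR-alpha controls in liver, had 0 counts in all 24 libraries.

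Of 11 genes of uptake, binding and activation, 5 were called higher and 2 lower in the jejunum. *Fabp2*, the intestinal fatty acid binding protein, was called higher with log2 fold changes of 2.99 in the jejunum and 3.81 in the ileum. It and *Fabp1* of the same list are also among the 13 enterocyte markers. *Acsl6*, a synthetase, was called lower in all 4 regions from levels of 0 to 5.92 in negative and 0 to 0.438 in positive libraries, with 0 counts in every positive library of the colon.

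Of 11 further mitochondrial oxidation genes, 1 was called higher and 3 lower in the jejunum, and 2 higher and 3 lower in the ileum, where the lower calls of both regions and the higher calls of the ileum are near the shares of all genes (25.6%, 20.6% and 17.9%). *Hsd17b10* (-2.79 in the jejunum) and *Ivd* (-2.37 in the ileum), which act on short and branched chains and in amino acid breakdown, had the widest of these decreases. Of 4 tested ketone body genes, *Oxct1* was called lower in the jejunum (-1.74) and *Acat1* in the ileum (-1.39). The list of lipid droplet genes, of which 8 were tested, held both genes of droplets and lipolysis and the fatty acid synthesis genes *Acaca*, *Acacb* and *Fasn*. In the jejunum 4 of its genes were called higher, with *Lipe*, the hormone-sensitive lipase, at 2.54. The 2 called lower there were *Fasn* (-2.52) and *Acaca* (-1.75), named after their values were seen. Over all genes 18.3% were called higher and 25.6% lower in the jejunum, so that 2 lower calls of 8 are near the background. *Mgll*, the monoglyceride lipase, was called higher in the colon (3.79).

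Several calls rested on single libraries. Other differences became called under some alternatives that kept all libraries, as those of *Acadm*, *Etfdh* and *Slc25a20* in the jejunum did under 3, 2 and 1 of them. In the duodenum, the 5 calls fell to 2 without positive library 1 or without negative library 2 or 3. *Acads* was lost in each of these cases and without positive library 3, whereas *Etfb* and *Echs1* were called whichever library was left out. In the jejunum, *Cpt2*, *Acadvl* and *Pex11a* were lost without negative library 1, *Acadvl* also without negative library 2 and *Pex11a* without positive library 3. In the ileum, *Cpt2* was lost without positive library 2 or negative library 3, *Acadl* and *Acadm* without negative library 1 or positive library 3, *Acadm* also without negative library 2, and *Pex11a* without negative library 1 or 2 or positive library 2. In the colon, the 11 calls fell to 5 without positive library 2, which ended those of *Cpt1a*, *Cpt2*, *Crat*, *Hadha*, *Ehhadh* and *Pex11a*. *Crat* was also lost without either library 1 of the colon, and *Ehhadh* without positive library 1 or negative library 2.

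The labels give the sequencing indices of each library, and each region had libraries of both i5 indices in both sorts. Within an i5 index, the median over the 38 genes of the log2 difference between sorts, computed on mean normalised CPM with a pseudocount of 0.5, was 0.78 and 0.52 among jejunal libraries, 0.46 and 0.50 among ileal ones, 0.57 and 0.50 among colonic ones, and -0.49 and -0.33 among duodenal ones. The direction in each region was thus the same within either index, with 1 or 2 libraries per group.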

How the data were processed

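RNA of 24 libraries of FACS-sorted epithelial cells was sequenced after preparation with a stranded pico-input total RNA kit. The authors deposited 1 table of raw read counts per gene and library. Alignment to GRCm38 and counting used STAR 2.5.1, per the submitters' processing notes, and the annotation and strand setting are not given in the sources used here. Lines for unmapped, multimapping, ambiguous and intergenic reads, 39.4% to 75.8% of each library's reads, were left out. This share was 64.6% to 75.8% in positive and 45.4% to 55.2% in negative duodenal libraries. In the ileum it was 54.1% to 60.6% and 49.5% to 53.2%, and in jejunum and colon the sorts overlapped. The part of this share in the results was not tested. Groups were taken from the labels. Replicates of a group differed beyond sampling noise (chi-square per degree of freedom of at least 26.5), and all 24 were used.

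Low genes were dropped by filterByExpr at a minimum count of 10 and a total of 15, and the rest were fitted over 8 groups with edgeR 4.0.16 (R 4.3.3, limma 3.58.1) by quasi-likelihood with TMM scaling. Benjamini-Hochberg adjustment covered 15044 genes, with a threshold of 0.05. Scripts were tested on simulated data. Symbols, exon lengths and overlaps came from GENCODE M21 (GRCm38), and promoters from RefSeq (GRCm38.p6). *Hsd17b4*, *Crat*, *Acaa2*, *Decr1* and *Angptl4* had no promoter in that table. Shared windows of 50 bases were counted between transcripts of different genes.

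Alternatives were RLE scaling, library size alone, DESeq2 1.42.0, no filter, a minimum of 10 counts in all libraries, coding genes of the nuclear genome alone, the i5 index as a covariate, the libraries of 1 region alone, an adjusted p under 0.01, a minimum log2 fold change of 1, and omission of each library in turn. Every gene of the set could be named. Values per library were given for the 1 or 2 genes with the largest called change in each role group and for *Ppara*, *Cpt1a*, *Hadha*, *Acadl*, *Acaa1b*, *Pdk4*, *Plin2*, *Angptl4* and *Ucp2*, and up to 2 genes with the largest called change were named per wider list. The genes, lists and tests were chosen with earlier results of these data known. Intervals of counts and the floor of 3 counts cover counting error only.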

Additional observations from a re-analysis of the deposited data

Results flagged for a closer look

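The difference between sorts in the duodenum was tested against the mean difference in jejunum and ileum, and 18 of the 38 genes passed (edgeR's interaction term, Benjamini-Hochberg adjusted p under 0.05), each with a lower log2 fold change of positive over negative cells in the duodenum. Among regulators and activating enzymes, the interaction was -2.36 on the log2 scale for *Ppargc1a* and -2.20 for *Acsl5*. In the carnitine shuttle it was -1.64 for *Slc25a20*, -1.33 for *Cpt2*, -1.93 for *Crat* and -2.11 for *Crot*. For the acyl-CoA dehydrogenases it was -1.35 for *Acadvl*, -1.66 for *Acadl*, -1.17 for *Acadm* and -0.96 for *Acads*, that of *Acadvl* being uncertain because the gene overlaps *Dvl2* on the opposite strand. Among the later mitochondrial steps it was -1.28 for *Hadha*, -1.51 for *Hadh* and -1.42 for *Etfb*. In the peroxisomal group it was -1.48 for *Acaa1a*, -1.45 for *Ehhadh*, -1.69 for *Hsd17b4* and -2.05 for *Pex11a*. *Angptl4* had -3.68, with 1 positive duodenal library at 4.61 normalised CPM and the others at 0.205 and 0.410. Without the first of these the duodenal difference between sorts was -3.13 in place of -0.72. These genes do not all have the same pattern beneath the term: *Acads* and *Hadh* were called lower in positive duodenal cells and not called in jejunum or ileum, whereas *Crat* and *Ehhadh* were called higher in jejunum and ileum and not called in the duodenum. The count of 18 fell to 7 under library size alone. Positive duodenal libraries also stood apart from all other groups in goblet and Paneth marker sums, and the part of this was not tested.

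The same test of the colon against jejunum and ileum passed for 6 genes. The log2 fold change was higher in the colon for *Pdk4* (3.62) and *Bdh1* (1.04) and lower for *Acsl1* (-1.13), *Acsl5* (-2.32), *Crot* (-1.44) and *Acaa1a* (-1.13). No test of single outlying values was run, and each group had 3 libraries.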

How the results depend on the processing

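No paired analysis was run, because the labels name no mouse and do not say which positive and negative libraries match. A fit with the number of a library within its group as a block was not run either. Over 1186 recomputed log2 fold changes between sorts that kept all libraries, 1146 kept their side of the threshold, 21 were no longer called, 19 became called and 0 of those called reversed, although some that were not called changed sign. Without single libraries the corresponding figures were 846, 56, 10 and 0 of 912. There were 8 alternatives that change the scaling, filter, genes, tool or model rather than the threshold. Of 53 called differences, 31 held without each library and under each of these alternatives in which the gene was tested. Some of the 31 were tested under 7 of the 8, among them those of *Acaa1b* and *Angptl4* in the jejunum. With an adjusted p under 0.01, the count of genes called was 2 in the duodenum (5 at 0.05), 7 in the colon (11), 10 for the duodenal interaction (18), 1 for the colonic interaction (6), 13 between positive cells of duodenum and jejunum (20), 3 between those of jejunum and ileum (5), 0 between negative cells of jejunum and ileum (3) and 1 between those of ileum and colon (2). Under library size alone these were 1 in the duodenum, 7 for the duodenal interaction, 2 between positive cells of jejunum and ileum and 1 between their negative cells. A log2 fold change of at least 1 left 3 in the duodenum, and no filter also left 3. At least 10 counts in every library left 7 in the colon and 1 between negative cells of jejunum and ileum, with fewer genes tested. DESeq2 called 8 between positive cells of jejunum and ileum, and the i5 index as a covariate gave 10 there and 6 between negative cells. Apart from the fewer genes or stricter rule that an alternative itself imposes, the cause was not tested. Without single libraries the counts ran from 2 to 5 in the duodenum, 14 to 20 in the jejunum, 15 to 18 in the ileum, 5 to 10 in the colon, 12 to 19 and 2 to 9 for the duodenal and colonic interactions, 0 throughout for jejunum against ileum, 14 to 21, 1 to 5 and 10 to 12 between positive cells along the gut, and 0 throughout, 1 to 2 and 1 to 3 between negative cells. The median over the set in the colonic interaction, 0.14, became -0.03 under RLE scaling and -0.09 under library size alone. Depth limits the low genes most, and 3 counts stand for up to 0.360 normalised CPM.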

Other observations

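In each of the 8 groups the library numbered 3 had the highest summed level of the 38 genes, from 1002 normalised CPM in negative ileal cells to 2593 in positive jejunal cells. It also had the highest share of reads not on genes, from 47.2% in positive colonic to 75.8% in positive duodenal cells. The part of this share in the sums was not tested. In the duodenum the positive sum lay below the negative one of the same number, at 890 and 1217, 961 and 1392, and 1288 and 1550. The numbers of the libraries follow the accession order and do not say which libraries belong together.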
